A study of Mus musculus with 6 samples.

Results

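The SREBP machinery comprised 8 genes chosen by name: *Srebf1* and *Srebf2*, which encode the sterol regulatory element-binding proteins (SREBPs), *Scap*, *Insig1* and *Insig2*, which hold and escort them, *Mbtps1* and *Mbtps2*, which encode the proteases that release them, and *Stard4*, which encodes a sterol carrier. Each gene was read from the RefSeq transcript with the highest total count, and *Srebf1* also from each of its transcripts. All 8 were among the 24562 genes of the read count table, and all 8 passed the filter on low counts that left 11470 genes for testing. RNA was sequenced from bone marrow-derived macrophages (BMDMs) that were left unstimulated, in 3 control and 3 AclyM-KO libraries. BMDMs are macrophages grown from bone marrow cells, here in medium with L929-conditioned medium as the source of growth factor. Control mice carried *Acly* fl/fl, with *loxP* sites around exon 9 of *Acly*, and no Cre, and AclyM-KO mice carried *Acly* fl/fl and *Lyz2*-Cre, both on a C57Bl/6J background. *Acly* encodes ATP citrate lyase, which makes cytosolic acetyl-CoA from citrate. The *Lyz2* promoter drives Cre in macrophages, neutrophils and other myeloid cells, so deletion was not restricted to BMDMs. Legends in the study call replicates of this kind technical, from 3 pooled mice, and p-values therefore measure the spread between these libraries and not between mice. The study's in vitro work used bone marrow of young adult mice of both sexes, and which of these mice gave these libraries is not stated.

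SREBPs are made as precursors in the membrane of the endoplasmic reticulum (ER), bound to SCAP, a sterol-sensing escort protein. When ER sterols are plentiful, INSIG proteins retain the SCAP-SREBP complex in the ER, and when sterols fall, SCAP carries SREBP in COPII vesicles to the Golgi. There, site-1 protease (*Mbtps1*) and site-2 protease (*Mbtps2*) cut it in turn, and the released domain enters the nucleus and activates genes of sterol and fatty-acid synthesis, with *Insig1* and *Srebf2* among its known targets. *Insig2* is known to respond to other signals. In macrophages, this pathway balances sterol synthesis against sterol taken up with lipoproteins and dead cells. The libraries measured transcripts, and neither cleavage nor the location of SREBP was measured.

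The DNA upstream of 4 machinery genes is shown because *Insig1* and *Srebf2* rose in AclyM-KO macrophages while their paralogs *Insig2* and *Srebf1* did not pass the test. The sequences are from RefSeq's start sites on GRCm38.p6, the patched form of mm10, and each run stops before the start of the gene's GENCODE M21 transcript. RefSeq windows were read for 7 of the 8 genes, with 12 windows in all, and *Stard4* was left out of this search. The *Insig1* run spans chr5:28071162-28071362 on the plus strand, and the *Srebf2* run chr15:82147019-82147180 on the plus strand. The *Insig2* run spans chr1:121328025-121328274 on the minus strand, and the *Srebf1* run chr11:60220628-60220877 on the minus strand. Capitals mark 4 motifs searched on both strands: the sterol regulatory element core TCACCCCA (SRE core), the CCAAT box CCAAT, the E-box CACGTG and the GC box GGGCGG. These letters were chosen after the sequences had been read.
Insig1: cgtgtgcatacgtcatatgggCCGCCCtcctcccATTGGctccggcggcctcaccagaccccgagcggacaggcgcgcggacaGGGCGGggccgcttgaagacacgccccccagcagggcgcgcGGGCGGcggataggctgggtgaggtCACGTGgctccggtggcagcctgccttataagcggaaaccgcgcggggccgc
Srebf2: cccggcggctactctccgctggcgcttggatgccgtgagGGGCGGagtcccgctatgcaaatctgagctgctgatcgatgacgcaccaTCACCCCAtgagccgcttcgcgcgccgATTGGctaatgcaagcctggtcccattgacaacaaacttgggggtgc
Insig2: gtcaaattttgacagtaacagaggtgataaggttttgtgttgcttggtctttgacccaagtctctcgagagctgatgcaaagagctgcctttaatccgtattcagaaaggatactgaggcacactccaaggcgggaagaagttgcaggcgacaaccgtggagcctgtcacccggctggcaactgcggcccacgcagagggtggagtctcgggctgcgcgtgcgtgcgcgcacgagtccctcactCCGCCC
Srebf1: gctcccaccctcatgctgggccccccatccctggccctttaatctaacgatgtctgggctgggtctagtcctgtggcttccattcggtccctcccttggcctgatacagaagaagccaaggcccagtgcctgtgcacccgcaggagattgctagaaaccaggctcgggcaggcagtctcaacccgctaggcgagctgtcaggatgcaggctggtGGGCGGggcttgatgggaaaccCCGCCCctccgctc

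The *Srebf2* run held an SRE core, 74 to 67 bases before the transcript start, with a CCAAT box on the other strand at 47 to 43 bases and a GC box at 123 to 118 bases. No other run held the SRE core as spelled, on either strand. Other spellings of this element were not searched, so its absence from a run is of these letters only. The *Insig1* run held a CCAAT box on the other strand at 167 to 163 bases, an E-box at 52 to 47 bases and 3 GC boxes. The *Insig2* run held 1 GC box in its last 6 bases, and the *Srebf1* run held 2 GC boxes. The absence of a CCAAT box in these 2 runs does not hold for all start sites of the genes: the *Insig2* window upstream of 121332589 held 3, and the *Srebf1* windows upstream of 60210471 and of 60222581 held 1 each. No matches overlapped in the runs shown. Among 32851 mouse promoter windows of 250 bases, 1.34% held the SRE core, 33.8% a CCAAT box, 6.02% an E-box and 32.7% a GC box, and the *Insig1* and *Srebf2* runs were shorter than these windows, at 201 and 162 bases. A match is a run of letters, and no binding was measured.

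The total count over all transcripts lay between 19327459 and 23582992 in control libraries and between 19797218 and 44507233 in AclyM-KO libraries, where replicate 2 was the deepest. Counts of the 8 genes ranged from 279 to 10540 in a library. Levels are given as CPM, which are counts scaled to the normalized size of each library, and errors of levels are SDs over 3 libraries (n = 3). *Acly* itself stood at 230 ± 8.18 CPM in control and fell to 96.8 ± 3.06 CPM in AclyM-KO macrophages (log2 fold change -1.25, edgeR adjusted p = 5.58e-07). The summed level of 7 macrophage markers was 8624 to 8823 CPM in control and 7050 to 8315 CPM in AclyM-KO libraries, and 2 of these markers, *Csf1r* and *Mertk*, were lower past the threshold. Markers of neutrophils summed to at most 18.7 CPM, and those of dendritic cells to at most 1.74 CPM. The B cell, mast cell, fibroblast and erythroid lists each summed to at most 0.302 CPM, and *Cd3e*, *Ms4a2*, *Col3a1*, *Pdgfra*, *Hba-a1* and *Hbb-bs* were at 0 in every library. The T cell list summed to 57.9 to 66.2 CPM in control and 34.5 to 50.9 CPM in AclyM-KO libraries, nearly all of it *Cd4*, which fell. The part of macrophage marker loss in the changes of the machinery genes was not tested, and in bulk RNA fewer cells of a type and less RNA per cell cannot be told apart.

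*Insig1*, *Stard4* and *Srebf2* rose in AclyM-KO macrophages, by 2.80-fold, 2.44-fold and 1.42-fold. The other 5 machinery genes did not pass the threshold, which was an adjusted p of 0.05 or less (quasi-likelihood test of edgeR, Benjamini-Hochberg over all 11470 genes). Thus 3 of 8 genes (37.5%) were called, against 12.3% of all genes tested. All 3 were higher, against 6.70% of all genes called higher, and 0 were lower, against 5.65%. The 8 genes were chosen with earlier results of these data known, so these shares are not independent evidence. No machinery gene was lower by DESeq2 or limma-voom with sample weights either, or at an unadjusted p under 0.05. In 4 of the 8, *Srebf1* among them, every AclyM-KO library was above every control library, which held for 16.3% of all genes tested. The groups overlapped in the other 4, while 32.8% of all genes tested had no overlap in either direction. The median log2 fold change of the 8 genes was 0.17, and that of all genes tested was 0.00.

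**Figure D1:**
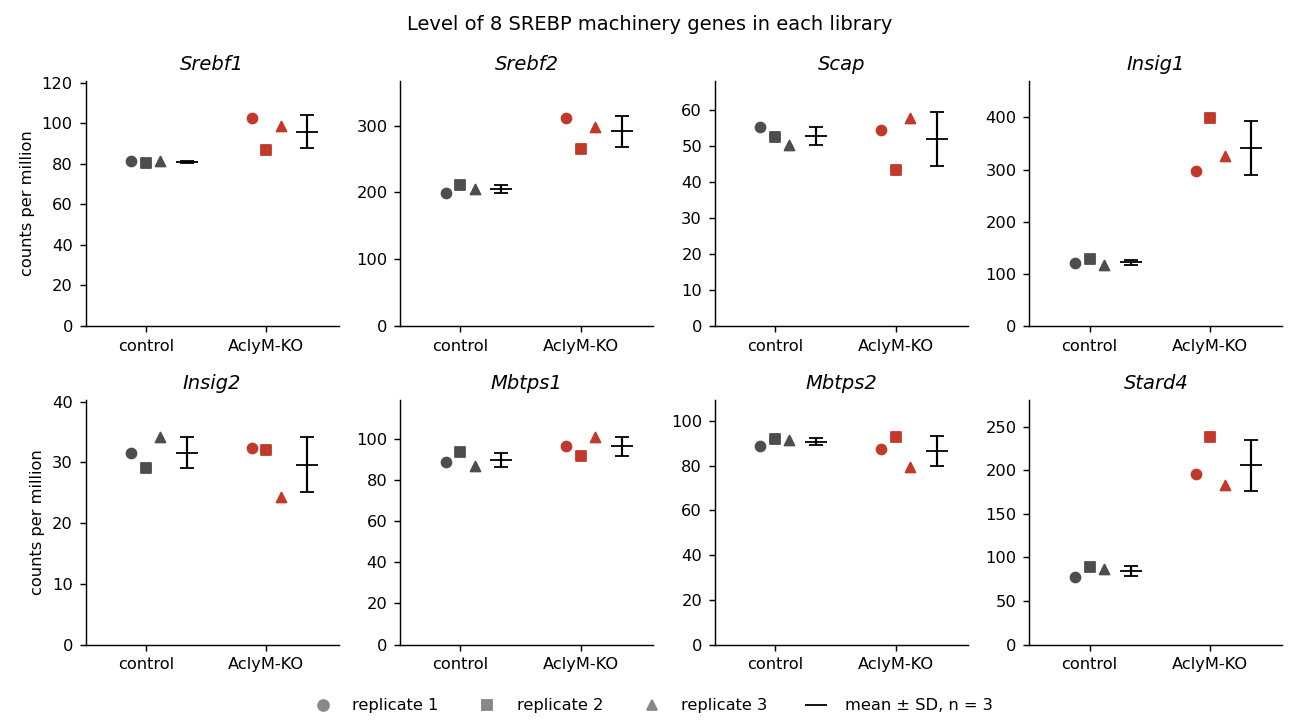
Levels of the 8 genes in each library, in CPM on axes that start at 0, with one panel per gene, 3 control (grey) and 3 AclyM-KO (red) libraries and the mean ± SD (n = 3) beside them. *Insig1*, *Stard4*, *Srebf2* and *Srebf1* show no overlap between the groups, and *Scap*, *Insig2*, *Mbtps1* and *Mbtps2* overlap.

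**Figure D2:**
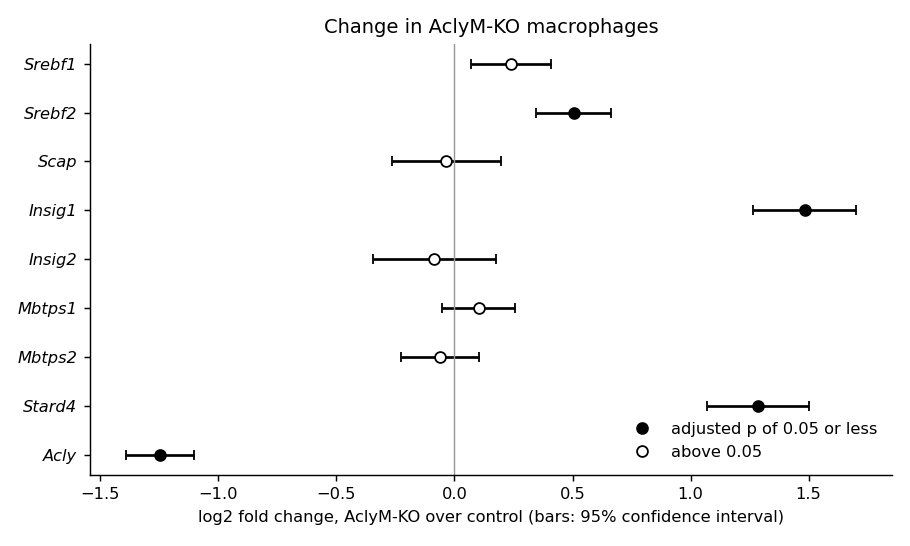
Log2 fold change of each gene and of *Acly*, AclyM-KO over control, with 95% confidence intervals from edgeR. Filled points passed the threshold: *Insig1* (1.48), *Stard4* (1.29) and *Srebf2* (0.51) lie above 0, and *Acly* (-1.25) below it.

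*Srebf2* encodes SREBP-2, the family member that favours genes of sterol synthesis and uptake. Its transcript (NM_033218, chromosome 15, 82147181 to 82205379 of mm10, plus strand, 19 exons) had 2186, 2824 and 2274 counts in control replicates 1 to 3 and 3569, 7026 and 3410 counts in AclyM-KO replicates 1 to 3. Normalized for depth, the control libraries held 199, 211 and 205 CPM and the AclyM-KO libraries 311, 265 and 298 CPM. The lowest AclyM-KO library was above the highest control library, and the groups did not overlap. On average, *Srebf2* stood at 205 ± 6.13 CPM in control and 291 ± 23.3 CPM in AclyM-KO macrophages. It rose by 0.51 on the log2 scale (SE 0.073, 95% confidence interval 0.35 to 0.66, edgeR adjusted p = 0.00145). It passed the threshold in all 15 alternative analyses, between 0.45 and 0.57. *Mir33*, which encodes a microRNA that represses cholesterol export genes, lies inside *Srebf2*, and its hairpin (82198122 to 82198190) had 0 counts in every library, which allows up to 3 counts in each. These libraries were made from mRNA and not from small RNA.

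*Srebf1* encodes SREBP-1, whose isoforms 1a and 1c favour genes of fatty-acid synthesis and are made from separate first exons. Its transcript (NM_011480, chromosome 11, 60199089 to 60220604 of mm10, minus strand, 19 exons) had 81.3, 80.5 and 81.3 CPM in the control libraries and 102, 86.7 and 98.6 CPM in AclyM-KO replicates 1 to 3. The control libraries were nearly equal, and all AclyM-KO libraries were above them, with replicate 2 the closest. Mean levels were 81.0 ± 0.464 CPM for control and 95.9 ± 8.15 CPM for AclyM-KO. The difference of 0.24 on the log2 scale (SE 0.078, 95% confidence interval 0.07 to 0.41) did not pass the threshold (edgeR adjusted p = 0.0662). Without AclyM-KO replicate 2 it was 0.31 and passed (edgeR adjusted p = 8.89e-04), and it also passed with total counts only and with limma-voom with sample weights. Its exons overlap 109 bases of *Rai1* on the other strand. Counting was run at its tool's default settings, and the sources used here do not spell out what these are for strand or introns.

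The count table held a second *Srebf1* transcript, NM_001313979. It differed from the first by 12, 13 and 14 counts in the control libraries and by 13, 18 and 14 counts in the AclyM-KO libraries. Nearly all reads were thus shared by both. The difference, as a share of the first transcript's counts, was 1.37% ± 0.175 for control and 1.04% ± 0.234 for AclyM-KO (SD, n = 3), and the groups overlapped (two-sided exact permutation test, p = 0.2). In a fit over all 18933 transcripts tested, NM_011480 changed by 0.24 (adjusted p = 0.0574) and NM_001313979 by 0.25 (adjusted p = 0.0526). GENCODE M21 pairs both with the same transcript, so these counts do not separate SREBP-1a from SREBP-1c.

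Within each library (3 per group, errors as SD), the log2 ratio of *Srebf1* to *Srebf2* in reads per kilobase was -1.05, -1.15 and -1.10 in control and -1.36, -1.37 and -1.35 in AclyM-KO libraries. *Srebf2* was thus the more abundant of the pair everywhere, and more so in every AclyM-KO library than in any control library. The mean ratio moved from -1.10 ± 0.050 to -1.36 ± 0.010, a difference of -0.26 on the log2 scale (two-sided exact permutation test, p = 0.1). This is the smallest p that 3 libraries against 3 can give. The ratio does not depend on normalization between libraries, and in AclyM-KO replicate 2, where both genes were lowest, it lay beside the other 2 libraries.

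*Insig1* encodes the INSIG protein whose gene is itself switched on by SREBP, so that its product closes a feedback loop on SREBP release. Its transcript (NM_153526, chromosome 5, 28071363 to 28078662 of mm10, plus strand, 5 exons) had 1333, 1709 and 1297 counts in the control libraries, against 3419, 10540 and 3737 in AclyM-KO replicates 1 to 3. This was 121, 128 and 117 CPM in control and 298, 398 and 326 CPM in AclyM-KO libraries. Every AclyM-KO library held more than 2 times the level of any control library. Its mean rose from 122 ± 5.40 to 341 ± 51.9 CPM, or by 1.48 on the log2 scale (SE 0.10, 95% confidence interval 1.27 to 1.70, edgeR adjusted p = 4.29e-06). It was the largest change among the 8 genes and stayed between 1.36 and 1.57 over 15 alternatives.

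*Insig2* encodes the second INSIG protein, which retains SCAP in the same way. Its transcript (NM_133748, chromosome 1, 121304353 to 121328024 of mm10, minus strand, 6 exons) had 31.5, 29.1 and 34.2 CPM in control and 32.3, 32.1 and 24.3 CPM in AclyM-KO replicates 1 to 3. The groups overlapped, and AclyM-KO replicate 3 was the lowest of all libraries. Means of 31.6 ± 2.56 and 29.6 ± 4.54 CPM gave a log2 fold change of -0.09 (95% confidence interval -0.35 to 0.18, edgeR adjusted p = 0.702), and without AclyM-KO replicate 3 it was 0.03. The interval reaches neither the change of *Insig1* nor that of *Stard4*.

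The log2 ratio of *Insig1* to *Insig2* in reads per kilobase was 1.95, 2.14 and 1.77 in control and 3.20, 3.63 and 3.74 in AclyM-KO libraries. The lowest AclyM-KO library lay above the highest control library, so the balance between the INSIG transcripts differed between groups in every library. The mean went from 1.95 ± 0.18 to 3.53 ± 0.28, a 2.98-fold shift towards *Insig1* (two-sided exact permutation test, p = 0.1, the smallest this design allows). The shift between groups does not depend on transcript length, but the ratio itself does. The representative *Insig2* transcript is 2697 bases long, and those of 1252 and 1292 bases held at most 0.717% fewer counts in any library, while that of 674 bases held 9.68% to 15.7% fewer. In control macrophages, *Insig1* per kilobase was 3.86 times *Insig2* with the long form, 1.80 and 1.85 times with the forms of 1252 and 1292 bases, and 1.12 times with the shortest, each from its own counts.

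**Figure D3:**
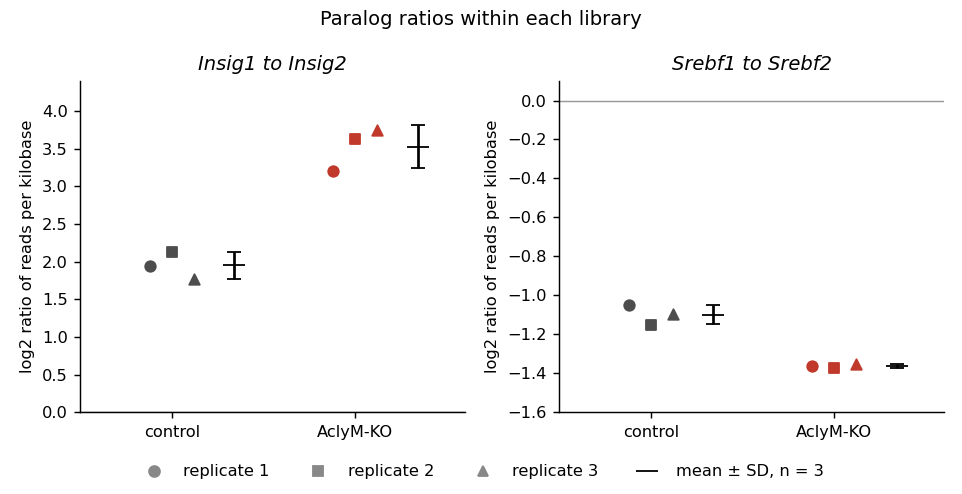
Log2 ratios of reads per kilobase between paralogs within each library, *Insig1* to *Insig2* (left) and *Srebf1* to *Srebf2* (right), with the mean ± SD (n = 3). The AclyM-KO libraries lie above all control libraries on the left (3.53 against 1.95 on average) and below them on the right (-1.36 against -1.10).

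*Scap* encodes the escort that SREBPs cannot leave the ER without. Its transcript (NM_001001144, chromosome 9, 110333356 to 110384950 of mm10, plus strand, 23 exons) had 55.5, 52.7 and 50.4 CPM in control and 54.6, 43.5 and 57.8 CPM in AclyM-KO replicates 1 to 3. AclyM-KO libraries lay on both sides of the control libraries, with replicate 2 the lowest of all. The log2 fold change was -0.03 (95% confidence interval -0.26 to 0.20, edgeR adjusted p = 0.871), and without AclyM-KO replicate 2 it was 0.09. Exons of *Scap* overlap 785 bases of 5830462I19Rik on the opposite strand.

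*Mbtps1* encodes site-1 protease, a Golgi serine protease that makes the first cut in SREBP. Its transcript (NM_001167910, chromosome 8, 119508156 to 119558735 of mm10, minus strand, 23 exons) had 88.9, 93.6 and 87.1 CPM in control and 96.9, 91.9 and 101 CPM in AclyM-KO libraries, with AclyM-KO replicate 2 inside the control range. The log2 fold change was 0.10 (95% confidence interval -0.05 to 0.26, edgeR adjusted p = 0.391). *Mbtps2* encodes site-2 protease, a metalloprotease that makes the second cut within the membrane. Its transcript (NM_172307, chromosome X, 157547824 to 157598715 of mm10, minus strand, 11 exons) had 88.8, 92.0 and 91.4 CPM in control and 87.7, 92.9 and 79.6 CPM in AclyM-KO libraries. The AclyM-KO range enclosed the control range, and the log2 fold change was -0.06 (95% confidence interval -0.23 to 0.10, edgeR adjusted p = 0.646). For *Scap*, *Insig2* and both proteases, the intervals exclude the size of the change seen in *Srebf2* (0.51), and smaller changes in either direction remain possible.

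*Stard4* encodes a soluble carrier that moves cholesterol between membranes, the ER included, and is known as a target of SREBP-2. Its transcript (NM_133774, 6 exons, minus strand) had 858, 1184 and 964 counts in the control libraries, against 2248, 6308 and 2097 in AclyM-KO replicates 1 to 3. This was 78.0, 88.5 and 87.0 CPM in control and 196, 238 and 183 CPM in AclyM-KO libraries. All AclyM-KO libraries held more than 2 times the highest control library. Its mean rose from 84.5 ± 5.65 to 206 ± 29.0 CPM, or by 1.29 on the log2 scale (SE 0.099, 95% confidence interval 1.07 to 1.503, edgeR adjusted p = 1.34e-05). The intervals of *Stard4* and *Insig1* overlapped, and that of *Srebf2* lay below both.

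Levels of different genes were compared per kilobase of transcript. In control macrophages, *Insig1* (45.2 ± 2.001 CPM per kilobase) and *Srebf2* (40.4 ± 1.21) were the most abundant of the 8. *Mbtps1* (21.4 ± 0.808), *Mbtps2* (18.9 ± 0.348) and *Srebf1* (18.8 ± 0.108) followed, then *Stard4* (16.6 ± 1.11), *Scap* (12.5 ± 0.597) and *Insig2* (11.7 ± 0.95). The libraries of *Mbtps2* and *Srebf1* overlapped, as did those of *Scap* and *Insig2*, and other neighbours in this order did not overlap. In AclyM-KO macrophages, *Insig1* (126 ± 19.2) and *Srebf2* (57.4 ± 4.58) again came first, and *Stard4* (40.3 ± 5.69) was the third instead of the sixth. There, *Mbtps1* overlapped *Srebf1*, and *Scap* overlapped *Insig2*. The place of *Insig2* rests on its long transcript, since its level in control was 24.4 to 40.3 CPM per kilobase with the shorter forms. Lengths are those of the exons, and levels per kilobase are approximate if the counting defaults also took in intron reads.

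The 3 AclyM-KO libraries varied more than the control libraries in several machinery genes, and replicate 2, the deepest library, was the highest or lowest of them in 7 of 8 (87.5%), as it was in 79.9% of all genes tested. It was the highest AclyM-KO library for *Insig1*, *Stard4* and *Mbtps2*, and the lowest for *Srebf1*, *Srebf2*, *Scap* and *Mbtps1*. On the log2 CPM scale it lay 0.24 above the AclyM-KO mean for *Insig1* and 0.22 above it for *Stard4*, and 0.14 below it for *Srebf1*, 0.13 below for *Srebf2* and 0.24 below for *Scap*. Without this library, the log2 fold changes were 1.36 for *Insig1*, 1.16 for *Stard4* and 0.57 for *Srebf2*, and all remained past the threshold. When its counts were thinned to the depth of the other libraries, the same 3 genes were called.

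**Figure D4:**
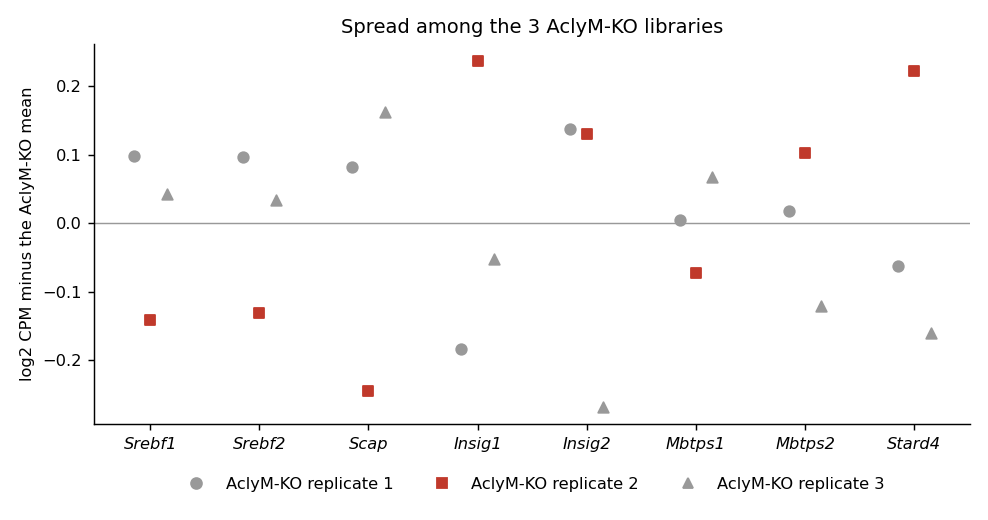
Position of each AclyM-KO library relative to the mean of the 3, in log2 CPM, for the 8 genes. Replicate 2 (red squares) lies above the others for *Insig1* (0.24) and *Stard4* (0.22) and below them for the SREBP genes, *Scap* and *Mbtps1*.

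Genes around the machinery were read from 8 lists. Their counts are set against the 12.3% of all tested genes that passed. Of 12 genes for the COPII coat, which buds SCAP-SREBP from the ER, 0 passed in edgeR and in DESeq2 and 1 in limma-voom with sample weights, while 3 of 12 had an unadjusted p under 0.05 in edgeR, which held for 27.3% of all genes tested. Their log2 fold changes ran from -0.25 to 0.19 (median -0.05). *Sec24c*, a cargo-binding subunit, had means of 152 CPM (control) and 145 CPM (AclyM-KO), *Sar1a*, the GTPase that starts the coat, of 121 and 124 CPM, and *Sec31a*, of its outer layer, of 117 and 111 CPM. *Sec16a*, which marks ER exit sites, had the lowest log2 fold change of the list (-0.25, edgeR adjusted p = 0.0563). *Sec16a* passed with no filter on low counts (adjusted p = 0.0334), in limma-voom with sample weights (0.0176), without AclyM-KO replicate 1 (0.0244) and without AclyM-KO replicate 2 (0.0327). Of 13 genes for ER-associated degradation around INSIG, 2 were higher and 0 lower (15.4% called, median 0.02), a share near that of all genes. These were *Vcp*, the ATPase that extracts proteins from the ER membrane (0.23, edgeR adjusted p = 0.0480), and *Erlin1*, of the ER lipid raft complex (0.26, adjusted p = 0.0492). Both lost the call in DESeq2, with AclyM-KO replicate 2 thinned and when any control library or AclyM-KO replicate 1 was left out.

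Of 15 genes for SREBP cofactors and turnover, 0 were higher and 1 was lower (6.67% called, median -0.06). This was *Usf1*, an E-box factor, which fell from 47.5 to 35.8 CPM (log2 fold change -0.42, edgeR adjusted p = 0.0193), a call that was lost when any control library was left out. At an unadjusted p under 0.05 in edgeR, 3 of the 15 were higher and 3 lower, while 27.3% of all genes tested were under it. The groups did not overlap in 9 of the 15, against 32.8% of all genes tested. *Ep300*, an acetyltransferase that binds SREBPs, had means of 210 and 179 CPM (adjusted p = 0.0731), and *Gsk3b*, whose kinase marks nuclear SREBP for degradation, of 200.1 and 191 CPM (adjusted p = 0.608). *Ep300* passed as lower in limma-voom with sample weights (adjusted p = 0.00855), without AclyM-KO replicate 1 (0.0204) and without AclyM-KO replicate 2 (0.0212), which gave 2 lower genes in this list. Of 8 other substrates of the 2 proteases, 0 were higher and 1 was lower (12.5% called, median -0.05). *Creb3l2*, an ER-bound transcription factor, fell from 18.0 to 11.2 CPM (log2 fold change -0.71, edgeR adjusted p = 0.00627), while *Atf6*, the stress sensor cut by both proteases, had -0.09 (adjusted p = 0.404).

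Most genes on the lists of known SREBP targets were higher, as *Insig1* and *Stard4* were. Of 18 enzymes of sterol synthesis, 16 were higher and 0 lower (median 1.52). *Lss* (2.29), *Fdps* (2.16), *Nsdhl* (1.69) and *Acat2* (2.56) had the smallest adjusted p. *Fdft1* (-0.07, edgeR adjusted p = 0.614), which overlaps *Ctsb* on the opposite strand in GENCODE M21, and *Ggps1* (-0.20, adjusted p = 0.244) did not pass. Whether this overlap affects the counts of *Fdft1* was not tested. Of 15 fatty-acid genes known as SREBP-1 targets, 14 were tested, 12 were higher and 0 lower in edgeR and in DESeq2 (median 1.23), and *Srebf1* itself did not pass the threshold. *Fads2* (2.83), *Scd1* (2.38), *Fasn* (1.73) and *Scd2* (1.43) had the smallest adjusted p, and *Gpam*, of glycerolipid synthesis, had -0.37 (edgeR adjusted p = 0.0757). *Gpam* passed as lower in limma-voom with sample weights (-0.39, adjusted p = 0.0371) and had an unadjusted p under 0.05 in edgeR. The sterol and fatty-acid lists were chosen with earlier results of these libraries known, so their direction is not independent evidence.

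*Stard4* was set beside 16 other genes of intracellular sterol transport. Of these, 14 were tested, 1 was higher and 1 was lower (14.3% called, median -0.06). DESeq2 called 1 higher and 2 lower, and limma-voom with sample weights 2 higher and 3 lower. *Tmem97*, which binds the lysosomal cholesterol transporter NPC1, rose (0.47, edgeR adjusted p = 0.00710), a call lost without control replicate 1. *Gramd1b*, which carries cholesterol from the plasma membrane to the ER, fell (-0.39, adjusted p = 0.00317). *Lipa*, the lysosomal lipase, had means of 2157 and 2313 CPM (adjusted p = 0.360), and *Npc2*, the soluble lysosomal cholesterol carrier, had -0.20 (edgeR adjusted p = 0.0527). *Npc2* passed in DESeq2 (adjusted p = 0.0449), in limma-voom with sample weights (0.00298), over all transcripts (0.0497) and without AclyM-KO replicate 2 (0.00326). Of 6 LXR receptors and partners, which control *Srebf1* in sterol-rich cells, 0 passed in edgeR (median -0.18), while 1 passed in DESeq2 and in limma-voom with sample weights and had an unadjusted p under 0.05 in edgeR. This was *Rxra*, the partner receptor of LXR, with -0.45 (edgeR adjusted p = 0.0819). AclyM-KO replicate 2 was its lowest library, at 67.2 CPM against 112 and 111 CPM, and without it the value was -0.23 (edgeR adjusted p = 0.00861). *Rxra* also passed in edgeR with no filter on low counts (adjusted p = 0.00941), with the replicate block (0.0209) and without AclyM-KO replicate 1 (0.0463). The corepressor *Ncor1* had -0.12 (adjusted p = 0.245).

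**Figure D5:**
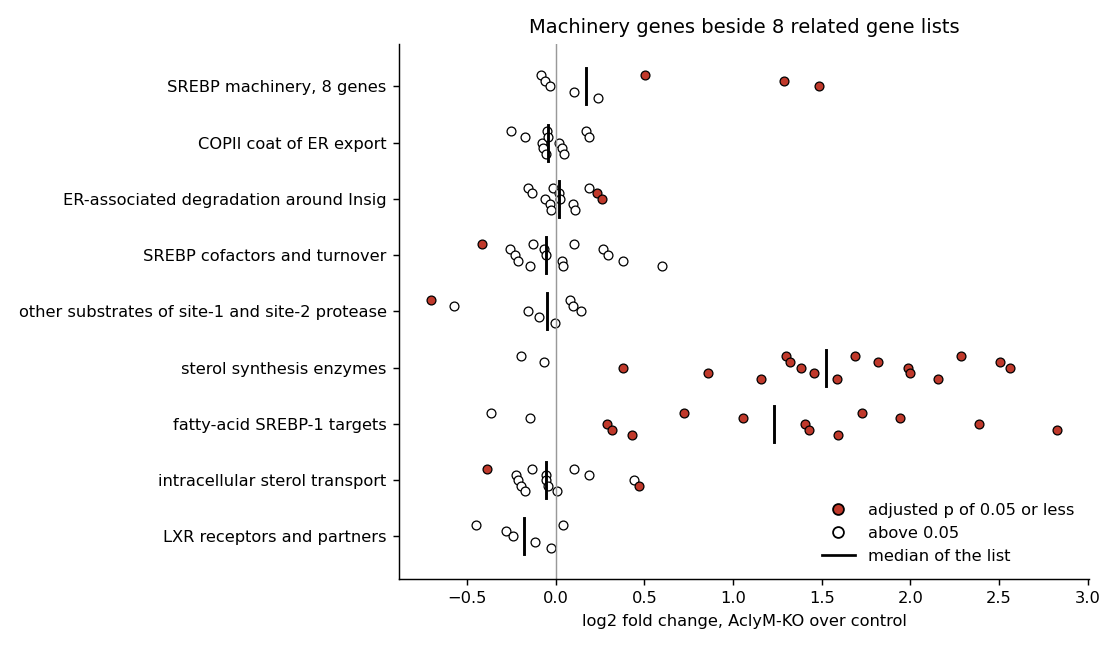
Log2 fold changes of the 8 machinery genes and of the genes of 8 related lists, AclyM-KO over control, one point per tested gene, filled where the adjusted p was 0.05 or less, with a bar at the list's median. Sterol synthesis enzymes (median 1.52) and fatty-acid SREBP-1 targets (1.23) lie mostly above 0, and the other lists have medians from -0.18 to 0.02.

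For each gene past the threshold, the genes with the most similar levels over the 6 libraries were found by the correlation of log2 CPM, which is dominated by the difference between the groups. Beside *Insig1*, *Cyp51* and *Hsd17b7*, enzymes of sterol synthesis, were among the 3 closest (r = 0.9996 and 0.999), and 389 genes reached 0.95 or more. Beside *Stard4*, *Elovl6*, a fatty-acid elongase, and *Pmvk*, a kinase of the mevalonate pathway, were among the 3 closest (r = 0.9996 and 0.997), with 347 genes at 0.95 or more. Beside *Srebf2*, the 3 closest were *Gusb* (0.997), *Hsd3b7* (0.995) and *Slc2a6* (0.993), of which none is an enzyme of sterol synthesis, and 148 genes reached 0.95. In *Insig1* and *Stard4*, AclyM-KO replicate 2 was the highest library, and in *Srebf2* it was the lowest of its group.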

How the data were processed

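Per the study's methods and the labels, the authors made strand-specific mRNA libraries, demultiplexed reads with CASAVA 1.8.2, aligned them to mm10 with STAR 2.5.2b, filtered alignments with SAMtools and summed tags per RefSeq transcript with HOMER2 at default settings. The authors deposited these counts as raw values, not normalized, in a table of 35745 transcripts. Another 6 columns of the table were not used. The RefSeq release, and what the defaults are for strand and introns, are not given in the sources used here. A read on a shared exon can count for several transcripts, so the transcript with the highest total represented each of 24562 symbols, of which 6089 had more than 1. Totals on this basis were 11120034 to 25814853.

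The groups' counts were fitted with edgeR 4.0.16 under R 4.3.3, with TMM normalization, the filterByExpr filter, genotype as a factor, the quasi-likelihood test and Benjamini-Hochberg adjustment over all genes tested. CPM used TMM-normalized library sizes, and lengths came from GENCODE M21. Ratios were tested with exact permutation tests (scipy 1.17.1). The 15 alternatives were RLE size factors, scaling by total counts only, a minimum of 10 counts in every library, no filter, DESeq2 1.42.0, limma-voom with sample weights (limma 3.58.1), a replicate block, all transcripts, AclyM-KO replicate 2 thinned to 11755137 counts, and each library left out in turn. The members and lists were chosen with earlier results of these data known. The text names the members, *Acly*, and from each list up to 4 genes past the threshold in each direction with the smallest adjusted p and up to 4 not past it with the highest CPM, and genes most correlated with a called member. Marker genes are named as called or as absent. Some genes are not reported here because they are withheld items.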

Additional observations from a re-analysis of the deposited data

How the results depend on the processing

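*Insig1*, *Stard4* and *Srebf2* passed the threshold in each of the 15 alternatives, so the count of called machinery genes was 3 or 4, and it was 4 where *Srebf1* passed: with total counts only (0.27, adjusted p = 0.0364), with limma-voom with sample weights (0.29, adjusted p = 0.00291) and without AclyM-KO replicate 2. Among all genes, 1416 were called, 2187 with limma-voom with sample weights, and 598 to 2136 with 1 library left out, fewest without control replicate 1 and most without AclyM-KO replicate 2. With total counts only, 919 genes were higher and 508 lower, against 768 and 648. The sign of *Scap*, negative in the reported fit, turned with limma-voom with sample weights (0.060), without control replicate 1 and without AclyM-KO replicate 2, in a range of -0.12 to 0.090 over libraries left out. That of *Insig2* turned without AclyM-KO replicate 3, in a range of -0.15 to 0.029, and neither gene passed. The cause was not tested. The difference in the log2 ratio of *Insig1* to *Insig2* was 1.47 to 1.74, that of *Srebf1* to *Srebf2* -0.29 to -0.24, and that in the share of *Srebf1* reads on 1 transcript -0.42 to -0.20 percentage points with each library left out.

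The labels do not say whether the replicate numbers pair the libraries. Deviations of same-numbered libraries correlated at 0.0900, 0.114 and -0.0466, and those of differently numbered ones at -0.132 to 0.0699. With 3 libraries per group, these values cannot settle whether libraries were paired. With the replicate block, 1583 genes and the same 3 machinery genes were called, *Srebf1* did not pass (0.24, adjusted p = 0.0680), and *Vcp* (adjusted p = 0.0610) and *Erlin1* (adjusted p = 0.0582) lost the call, while *Rxra* gained it (-0.48, adjusted p = 0.0209). Each machinery gene had at least 279 counts in a library, and what depth limits was not tested beyond thinning AclyM-KO replicate 2.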
